A study of Rattus norvegicus with 12 samples.

Results

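Messenger RNA of 6 genes that mark leukocytes and states of macrophages was followed in the urethra of male rats. The genes were chosen by Ensembl ID, and 5 of the 6 IDs, of 32623 in the count table, had a row: Ptprc (ENSRNOG00000000655), Cd68 (ENSRNOG00000037563), Cd163 (ENSRNOG00000010253), Spp1 (ENSRNOG00000043451) and Arg1 (ENSRNOG00000013304). Nos2 (ENSRNOG00000011023) was not analysed here. The symbols are those of the member list. The count table does not pair IDs with symbols, and the RefSeq gene table used here (assembly GRCr8) holds all 6 symbols but matched 0 of the Ensembl IDs, so the pairing could not be checked.

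The study compared 4 groups of 3 libraries each. TDN libraries came from rats with urethral injury that were treated with TDN, a nanostructure folded from synthetic DNA into a tetrahedron. Rapamycin libraries came from rats with the injury that were given rapamycin, an inhibitor of the mTOR kinase. Injury libraries came from rats with a mechanical injury of the urethra and no further treatment named in their labels, and sham libraries from rats without urethral injury. The labels give no strain, age, dose, route or time of harvest, and they do not say whether a library is 1 animal or a pool. The p-values therefore measure spread among libraries that may be technical repeats. Whole tissue was sequenced, so fewer cells of a type and less RNA per cell cannot be told apart. Total counts ranged from 44765817 to 55928721 per library. Rapamycin replicate 2 stood apart, with 17475 genes detected, where the rest had 18659 to 19254. Its TMM scaling factor was 0.66 and that of the rest 0.873 to 1.13. Fold changes that involve rapamycin are also given without it.

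After a wound, monocytes enter the tissue from blood and become macrophages, beside the resident macrophages already there. Macrophages clear debris early and later guide matrix deposition and its resolution, and their transcripts change with these tasks. Ptprc encodes CD45, a phosphatase on the surface of nearly all leukocytes. Cd68 encodes a lysosomal glycoprotein that is abundant in macrophages. Cd163 encodes the scavenger receptor for haptoglobin-haemoglobin complexes, found on resident and glucocorticoid- or IL-10-exposed macrophages, and is the antigen of the rat antibody ED2. Arg1 encodes arginase 1, which turns arginine into ornithine and urea. It competes for arginine with the inducible nitric oxide synthase encoded by Nos2, and liver cells hold it too. Spp1 encodes osteopontin, a secreted matrix protein and cytokine made by macrophages in scars but also by epithelial and bone cells.

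Promoter sequences were available from RefSeq (GRCr8, matched by symbol) for 4 of the genes, and those of Cd68 and Cd163 are shown because these are the members with a promoter here whose level passed the test between rapamycin and sham. The 250 bases before the annotated start were searched on both strands for the AP-1 motif TGANTCA and for the PU box GAGGAA, the core bound by the myeloid factor PU.1. Capitals mark matches. The Cd68 window is chr10:54882442-54882691 on the minus strand, and the Cd163 window is chr4:158770524-158770773 on the plus strand.
Cd68: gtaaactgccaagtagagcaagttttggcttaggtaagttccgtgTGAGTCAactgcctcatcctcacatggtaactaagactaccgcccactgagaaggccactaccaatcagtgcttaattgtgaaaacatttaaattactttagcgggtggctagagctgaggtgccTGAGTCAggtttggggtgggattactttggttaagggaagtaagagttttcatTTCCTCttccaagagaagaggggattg
Cd163: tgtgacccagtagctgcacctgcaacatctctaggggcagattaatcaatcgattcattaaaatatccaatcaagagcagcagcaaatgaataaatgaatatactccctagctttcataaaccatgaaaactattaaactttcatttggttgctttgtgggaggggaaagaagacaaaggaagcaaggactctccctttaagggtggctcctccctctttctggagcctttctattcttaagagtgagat
The Cd68 window held 2 matches to the AP-1 motif and 1 to the PU box. The Cd163 and Spp1 windows held neither motif, and the Ptprc window held 1 PU box. Of 33469 promoter windows of this length, 6.34% held the AP-1 motif and 23.3% the PU box, and the motifs overlap nowhere in the printed windows. A match is a run of letters and not a measured site.

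Ptprc, the marker of all leukocytes, varied least among the groups. Its level was 50.3, 25.5 and 39.4 CPM in TDN libraries, 91.4, 14.4 and 63.7 CPM in rapamycin libraries, 43.4, 47.9 and 30.6 CPM in injury libraries, and 27.7, 23.1 and 20.6 CPM in sham libraries (CPM, counts scaled to library size and TMM factor). The injury libraries were all higher than the sham libraries, while TDN and rapamycin each overlapped sham. Rapamycin held both the highest and the lowest of the 12 values, the lowest in replicate 2. The group mean was 38.4 ± 12.4 CPM in TDN, 56.5 ± 39.0 CPM in rapamycin, 40.6 ± 9.0 CPM in injury and 23.8 ± 3.6 CPM in sham (SD, n = 3 each).

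Cd68, the macrophage lysosomal marker, was higher in each library of the injured groups than in any sham library. It was at 108, 55.5 and 79.8 CPM in TDN, 399, 124 and 163 CPM in rapamycin, 141, 201 and 50.9 CPM in injury, and 22.1, 24.5 and 24.0 CPM in sham. The sham libraries were nearly equal, with a highest value 1.11 times the lowest, whereas the injury libraries spanned 3.95-fold and the rapamycin libraries 3.21-fold. The groups also differed in spread over all tested genes: the median SD of log2 CPM was 0.185 in TDN, 0.773 in rapamycin, 0.514 in injury and 0.174 in sham. Within those genes the SD of Cd68 was at the 83.2nd percentile in TDN, 56.3rd in rapamycin, 79.8th in injury and 19.2nd in sham. Group means were 81.2 ± 26.4 CPM in TDN, 229 ± 149 CPM in rapamycin, 131 ± 76 CPM in injury and 23.6 ± 1.3 CPM in sham (SD, n = 3 each).

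Cd163, the scavenger receptor, lay above all sham libraries only in rapamycin, whereas Cd68 did so in each injured group. The libraries held 13.9, 14.9 and 9.65 CPM in TDN, 161, 114 and 18.4 CPM in rapamycin, 12.9, 13.98 and 20.9 CPM in injury, and 15.8, 11.9 and 11.4 CPM in sham. Rapamycin replicates 1 and 2 stood far above the other 10 libraries, and rapamycin replicate 3 lay inside the range of the injury libraries. TDN, injury and sham overlapped one another. On average Cd163 was at 12.8 ± 2.8 CPM in TDN, 97.8 ± 72.6 CPM in rapamycin, 15.9 ± 4.3 CPM in injury and 13.02 ± 2.39 CPM in sham (SD, n = 3 each).

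Arg1, the arginase, had 96 counts in its lowest library. It was at 6.01, 5.07 and 8.60 CPM in TDN, 309, 68.0 and 26.9 CPM in rapamycin, 33.0, 12.2 and 5.27 CPM in injury, and 1.76, 3.54 and 3.88 CPM in sham. All sham libraries lay below all libraries of the injured groups, and rapamycin overlapped injury through rapamycin replicate 3 and injury replicate 1. The means were 6.56 ± 1.83 CPM in TDN, 135 ± 152 CPM in rapamycin, 16.9 ± 14.4 CPM in injury and 3.06 ± 1.14 CPM in sham (SD, n = 3 each).

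Spp1, osteopontin, had the widest range. Its libraries were at 275, 44.8 and 210 CPM in TDN, 166, 358 and 232 CPM in rapamycin, 149, 2195 and 25.2 CPM in injury, and 10.2, 22.2 and 21.0 CPM in sham. All libraries of the injured groups lay above all sham libraries, injury replicate 3 only narrowly. Injury replicate 2 held more than any other library: Spp1 took 0.218% of all its counts (95% Wilson interval 0.217 to 0.220%, counting error only), against 0.0279% or less in TDN, 0.0249% or less in rapamycin and 0.0136% in injury replicate 1. Within injury the highest library was 87.1 times the lowest, and the SD of log2 CPM, 3.24, was at the 99.4th percentile of the tested genes in that group. The mean was 176 ± 118 CPM in TDN, 252 ± 98 CPM in rapamycin, 790 ± 1219 CPM in injury and 17.8 ± 6.6 CPM in sham (SD, n = 3 each). Injury thus had the highest mean, but its median library, at 149 CPM, was below those of TDN, at 210 CPM, and rapamycin, at 232 CPM.

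**Figure D1:**
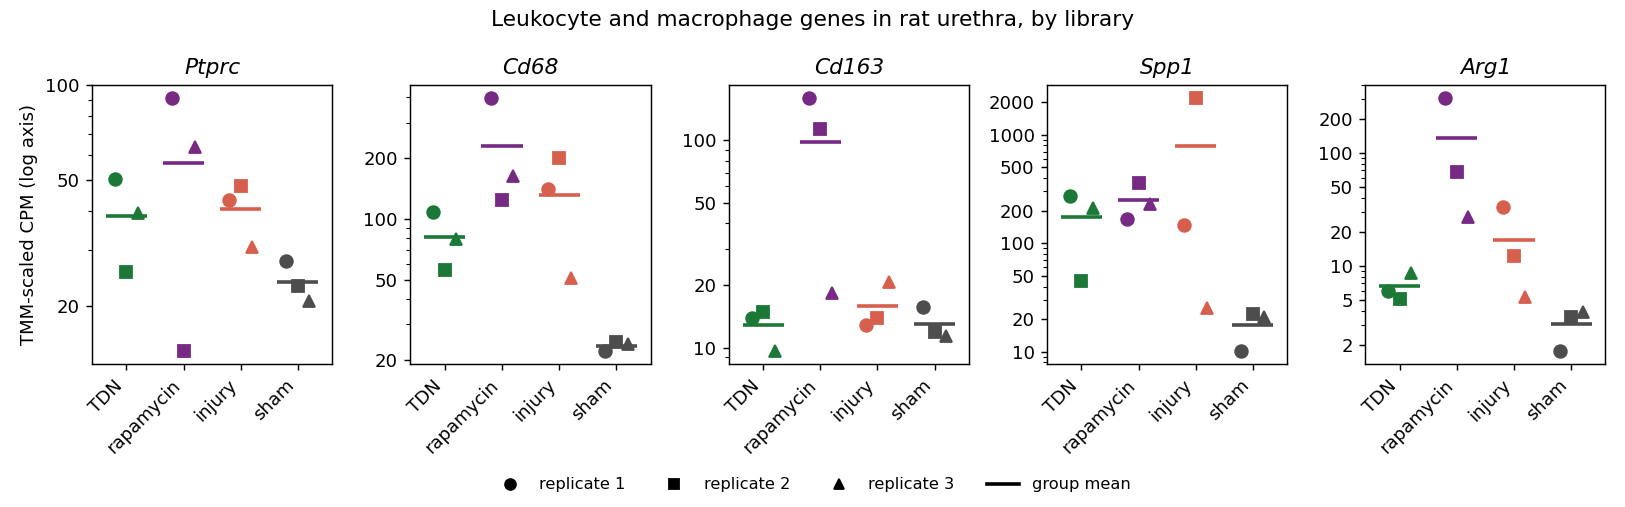
Level of each gene (TMM-scaled CPM, log axis) in the libraries of TDN, rapamycin, injury and sham; symbols are replicates and horizontal lines are group means of 3 libraries. Cd68, Spp1 and Arg1 lie above all sham libraries in each injured group, Cd163 is high in 2 rapamycin libraries (161 and 114 CPM), and 1 injury library holds 2195 CPM of Spp1.

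The order of the libraries within a group differed between genes. Injury replicate 3 was the lowest injury library for Ptprc, Cd68, Spp1 and Arg1 and the highest for Cd163. TDN replicate 2 was likewise the lowest TDN library for those 4 genes and the highest for Cd163. Rapamycin replicate 1 was the highest rapamycin library for Ptprc, Cd68, Cd163 and Arg1 and the lowest for Spp1. In rapamycin replicate 2 Ptprc was at 14.4 CPM, below all sham libraries, while Cd163 was at 114 CPM and Cd68 at 124 CPM, far above them.

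The injured urethra was first set against sham tissue. Cd68, Spp1 and Arg1 had higher fitted levels, but none of the 5 members passed the test (edgeR quasi-likelihood test over 17521 genes, Benjamini-Hochberg adjusted p under 0.05). Of all tested genes, 0.571% were called higher. The log2 fold change was 2.48 for Cd68 (SE 0.54, edgeR adjusted p = 0.0603), 5.47 for Spp1 (SE 1.41, adjusted p = 0.0855) and 2.46 for Arg1 (SE 0.87, adjusted p = 0.154). It was 0.77 for Ptprc (SE 0.52, adjusted p = 0.370) and 0.29 for Cd163 (SE 0.57, adjusted p = 0.756). For 4 of the 5 members all injury libraries lay above all sham libraries, which held for 19.4% of tested genes in this direction. The members' median log2 fold change was 2.46, against -0.01 over all tested genes. At an unadjusted p under 0.05 there were 3 members, where 21.8% of tested genes passed. DESeq2 called Cd68, Spp1 and Arg1 (11% of tested genes), limma voom called 0 members (0.925%), and voom with sample quality weights called all but Cd163 (53.2%).

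Calls after injury depended on single libraries. Without injury replicate 3 edgeR called Cd68 (log2 fold change 2.86, adjusted p = 0.0156) and Spp1 (6.04, adjusted p = 0.0170), and 11.9% of tested genes were called in that fit. Cd68 also passed without rapamycin replicate 1 (adjusted p = 0.0482, 0.583% of tested genes), a library of neither group. Cd68 and Spp1 passed without rapamycin replicate 2 (adjusted p = 0.0254 and 0.0447, 11% of tested genes). Without injury replicate 2 the Spp1 value was 2.36 (edgeR adjusted p = 0.214). Over all alternatives the adjusted p ranged from 0.000222 to 0.228 for Cd68, 3.8e-05 to 0.269 for Spp1 and 0.0243 to 0.553 for Arg1.

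Rapamycin against sham was the comparison in which members passed. Cd68, Cd163 and Arg1 rose in rapamycin-treated injured urethra, 3 of the 5 members, where 9.54% of tested genes were called higher. The log2 fold change was 3.28 for Cd68 (SE 0.56, edgeR adjusted p = 0.0216), 2.91 for Cd163 (SE 0.61, adjusted p = 0.0270) and 5.46 for Arg1 (SE 0.99, adjusted p = 0.0220). Arg1 lay at the 98.9th percentile of the fold changes of tested genes. Spp1 had a log2 fold change of 3.82 (SE 1.30, edgeR adjusted p = 0.0671) and Ptprc of 1.25 (SE 0.52, adjusted p = 0.107). Every rapamycin library exceeded every sham library in Cd68, Cd163, Spp1 and Arg1, as for 23.8% of tested genes in this direction. The members' median was 3.28, against -0.05 over all tested genes. DESeq2 added Spp1 to the 3 calls (32.9% of tested genes). In limma voom (10.2%) Cd68 and Arg1 were called and Cd163 had an adjusted p of 0.0535, and voom with sample quality weights called all 5 members (48.2%).

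These calls were lost when rapamycin replicate 1 was left out, with edgeR adjusted p = 0.0502 for Cd68, 0.0565 for Cd163 and 0.0502 for Arg1 and log2 fold changes of 2.63, 2.33 and 3.96. In that fit 0.443% of tested genes were called. They were also lost without any 1 of the sham libraries (adjusted p = 0.0735 to 0.116 over the 3 genes), where 0.0056, 0.0056 and 0.112% of tested genes were called. The log2 fold changes without a sham library were 3.24 to 3.34 for Cd68, 2.82 to 3.07 for Cd163 and 5.18 to 5.67 for Arg1. The 3 calls were lost too in a fit of the 6 libraries of these groups, which called Spp1 in their place (adjusted p = 0.0481, 0.202% of tested genes). Without rapamycin replicate 2 the 3 calls stood, at 3.63 for Cd68, 2.84 for Cd163 and 5.84 for Arg1 on the log2 scale, with 5.09% of tested genes called, and Spp1 was at 3.54 (edgeR adjusted p = 0.135). Ptprc then passed as well, with a log2 fold change of 1.75 (edgeR adjusted p = 0.0233). Spp1 passed without injury replicate 2 or 3 (edgeR adjusted p = 0.0387 and 0.0288, with 4.7 and 22.0% of tested genes called). Over all alternatives the adjusted p ranged from 7.85e-08 to 0.111 for Cd68, 3.13e-05 to 0.116 for Cd163, 2.97e-09 to 0.111 for Arg1, 0.00316 to 0.169 for Spp1 and 0.00225 to 0.324 for Ptprc.

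**Figure D2:**
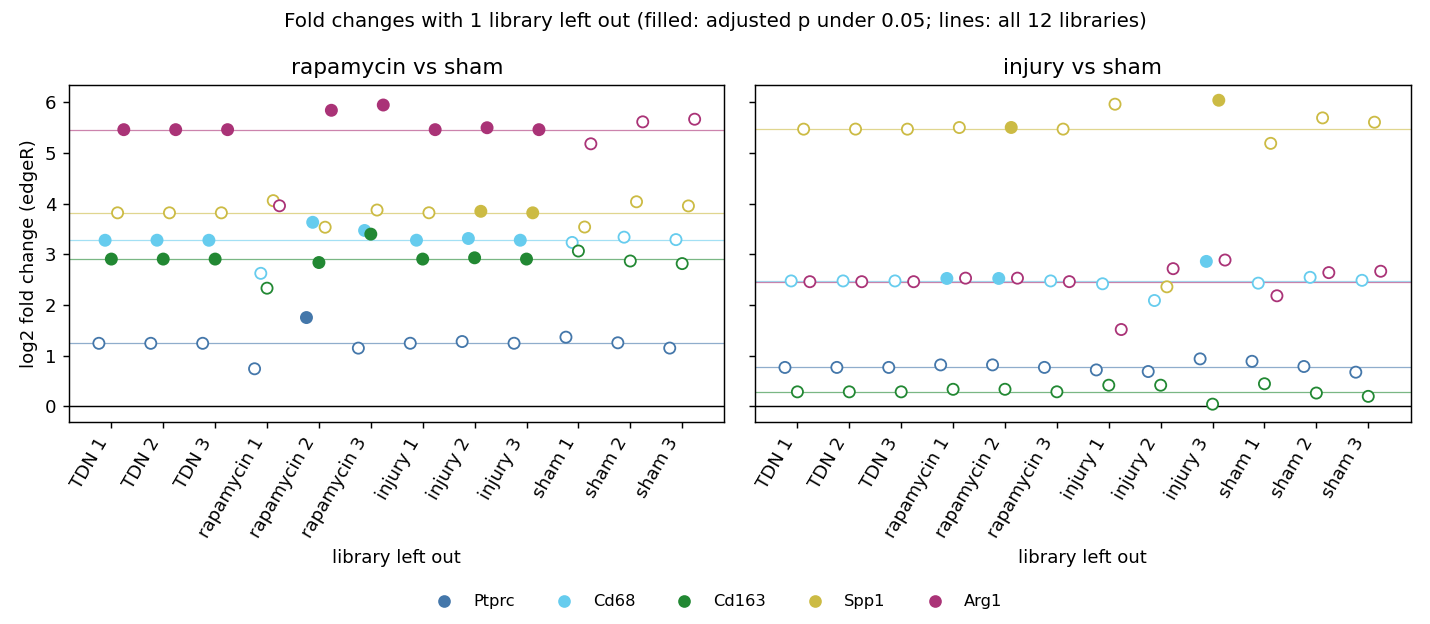
Log2 fold change of each gene with 1 library left out at a time, for rapamycin against sham and for injury against sham; filled points have an edgeR adjusted p under 0.05 and lines mark the values with all 12 libraries. In rapamycin against sham the calls of Cd68, Cd163 and Arg1 are lost without rapamycin replicate 1 or any sham library, and after injury Cd68 and Spp1 are called without injury replicate 3.

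In TDN-treated tissue each library exceeded the highest sham library in Cd68, Spp1 and Arg1, 3 of the 5 members, as for 15.7% of tested genes. No member passed (edgeR adjusted p under 0.05, 0% of tested genes called). The log2 fold change was 1.79 for Cd68 (SE 0.53, edgeR adjusted p = 0.443), 3.31 for Spp1 (SE 1.27, adjusted p = 0.741), 1.10 for Arg1 (SE 0.84), 0.69 for Ptprc (SE 0.52) and -0.02 for Cd163 (SE 0.57), the last 3 with an adjusted p of 1. The members' median was 1.10, against -0.02 over all tested genes. At an unadjusted p under 0.05 there were 2 members (5.31% of tested genes). DESeq2 called 1 member, Cd68 (1.8% of tested genes), as did voom with sample quality weights (11.2%), and voom without weights called 0 (0%). A fit of the 6 TDN and sham libraries, in which 5.88% of tested genes passed, called Cd68 (log2 fold change 1.81, edgeR adjusted p = 0.0142) and Spp1 (3.33, adjusted p = 0.0395). The adjusted p over all alternatives was 0.00287 to 1 for Cd68 and 0.0395 to 1 for Spp1.

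TDN against injury asked what the nanostructure changed in injured tissue. All 5 members had lower fitted levels in TDN, none passed the edgeR test, and the libraries overlapped for each of them. Over all tested genes 0% were called, and 9.31% lay below injury without overlap. The log2 fold change was -0.69 for Cd68 (SE 0.52), -2.16 for Spp1 (SE 1.21) and -1.36 for Arg1 (SE 0.83), each with an edgeR adjusted p of 0.649. For Ptprc it was -0.08 (SE 0.52, adjusted p = 0.952) and for Cd163 -0.31 (SE 0.57, adjusted p = 0.817). The members' median was -0.69, against 0.00 over all tested genes. At an unadjusted p under 0.05 there were 0 members (6.13% of tested genes), and DESeq2 (0.251%) and limma voom (0%) called 0. Voom with sample quality weights called Cd68 and Spp1 (adjusted p = 0.0145 and 0.0303, 37.6% of tested genes), with weights of 0.433, 2.1 and 0.204 for injury replicates 1 to 3. Over all alternatives the adjusted p reached from those values to 0.99 for both genes. The Spp1 difference turned to 0.98 without injury replicate 2, and that of Ptprc to 0.03.

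Rapamycin against injury asked the same of rapamycin. Cd163 and Arg1 had the largest differences, with log2 fold changes of 2.62 (SE 0.60) and 2.999 (SE 0.88), at the 99.2nd and 99.4th percentiles of the tested genes. The values were 0.80 for Cd68 (SE 0.52), 0.48 for Ptprc (SE 0.52) and -1.65 for Spp1 (SE 1.19). No member passed (edgeR adjusted p = 0.902 for each, 0% of tested genes called), and the libraries overlapped for all 5, where 3.94% of tested genes had none. At an unadjusted p under 0.05 there were 2 members, Cd163 and Arg1 (4.38% of tested genes). The members' median was 0.80, against -0.03 over all tested genes. DESeq2 called Cd163 (log2 fold change 2.67, adjusted p = 0.00807, 0.171% of tested genes), and neither form of voom called a member (0% of genes each). Without rapamycin replicate 3 edgeR called 3 genes in all, of which Cd163 was 1 (log2 fold change 3.11, adjusted p = 0.0218). The adjusted p of Cd163 ranged from 0.00807 to 1 over all alternatives. Without rapamycin replicate 1 the values were 1.99 for Cd163 and 1.43 for Arg1, and without rapamycin replicate 2 they were 2.50 for Cd163, 3.31 for Arg1, 1.11 for Cd68, 0.93 for Ptprc and -1.97 for Spp1. Spp1 turned to 1.49 without injury replicate 2, and Ptprc to -0.08 without rapamycin replicate 1.

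TDN against rapamycin set the treatments side by side. Cd68, Cd163 and Arg1 were lower in every TDN library than in any rapamycin library, 3 of the 5 members, as were 17.4% of tested genes. The log2 fold change was -1.49 for Cd68 (SE 0.52), -2.93 for Cd163 (SE 0.61) and -4.36 for Arg1 (SE 0.94), each with an edgeR adjusted p of 0.161, so no member passed, and 0% of tested genes did. Ptprc was at -0.56 (SE 0.52, adjusted p = 0.461) and Spp1 at -0.52 (SE 1.17, adjusted p = 0.769). At an unadjusted p under 0.05 there were 3 members (24.3% of tested genes). The members' median was -1.49, against 0.04 over all tested genes. DESeq2 called Cd68, Cd163 and Arg1 (9.92% of tested genes), limma voom called 0 (0%), and voom with sample quality weights called all but Spp1 (34.2%). Without rapamycin replicate 3 edgeR called Cd163 (-3.42, adjusted p = 0.00522) and Arg1 (-4.84, adjusted p = 0.0244), as it did 26.8% of tested genes. Without rapamycin replicate 1 the values were -0.81 for Cd68, -2.33 for Cd163, -2.83 for Arg1 and -0.03 for Ptprc, and none passed (adjusted p = 0.187 or more). Without rapamycin replicate 2 the values were -1.82 for Cd68, -2.84 for Cd163, -4.71 for Arg1, -1.04 for Ptprc and -0.20 for Spp1, and none passed (adjusted p = 0.304 or more). Over all alternatives the adjusted p was 0.00535 to 0.371 for Cd68, 0.000212 to 0.371 for Cd163 and 6.59e-05 to 0.371 for Arg1.

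**Figure D3:**
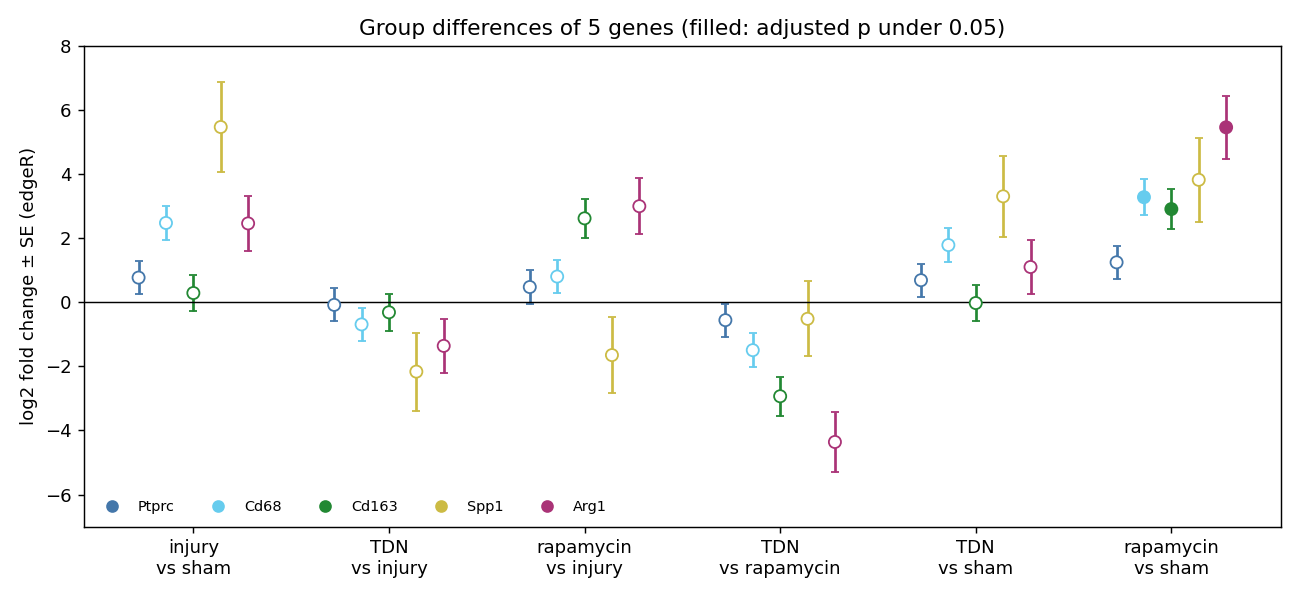
Fitted log2 fold change with its SE for the 5 genes in the 6 comparisons, first-named group over second-named group; filled points have an edgeR adjusted p under 0.05. The filled points are Cd68 (3.28), Cd163 (2.91) and Arg1 (5.46) in rapamycin against sham.

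These comparisons share libraries and are given side by side, not as independent evidence. In the order of group means, no pair of neighbouring groups passed the edgeR test for any member. For Cd68 and Arg1 the order was rapamycin, injury, TDN and sham, and for Cd163 rapamycin, injury, sham and TDN.

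Ratios within a library ask whether genes changed in proportion, whatever the scaling of the library. Since gene lengths differ, only the difference of a ratio between groups is read. How often ratios of other genes separate groups without overlap was not computed, so a lack of overlap here has no background share beside it. Groups of 3 libraries cannot give an exact two-sided permutation p below 0.1, and none of the 18 ratio tests had an adjusted p below 0.3. The log2 ratio of Cd68 to Ptprc was 1.11, 1.12 and 1.02 in TDN, 2.13, 3.11 and 1.36 in rapamycin, 1.70, 2.07 and 0.74 in injury, and -0.32, 0.08 and 0.22 in sham. Each injured group lay above sham without overlap, by 1.09 in TDN, 2.20 in rapamycin and 1.51 in injury (exact permutation p = 0.1 each, adjusted p = 0.3). The rapamycin difference was 1.75 without rapamycin replicate 2. TDN was also below rapamycin without overlap, with a difference of -1.12 (exact permutation p = 0.1, adjusted p = 0.3), or -0.66 without rapamycin replicate 2. The TDN libraries agreed closely, with an SD of 0.06, although Cd68 itself spanned 1.95-fold among them.

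The log2 ratio of Cd163 to Cd68 was -2.96, -1.90 and -3.04 in TDN, -1.31, -0.12 and -3.14 in rapamycin, -3.45, -3.84 and -1.29 in injury, and -0.49, -1.04 and -1.07 in sham. TDN and injury lay below sham without overlap, with differences of -1.77 for TDN and -1.99 for injury (exact permutation p = 0.1 each, adjusted p = 0.3). Rapamycin overlapped sham, with a difference of -0.66 (exact permutation p = 0.7, adjusted p = 0.84), which was -1.36 without rapamycin replicate 2 and 0.15 without rapamycin replicate 3. The ratio of Spp1 to Cd68 overlapped in all 6 comparisons. Its largest difference, 1.32 for injury against sham (exact permutation p = 0.4, adjusted p = 0.6), was 0.01 without injury replicate 2.

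**Figure D4:**
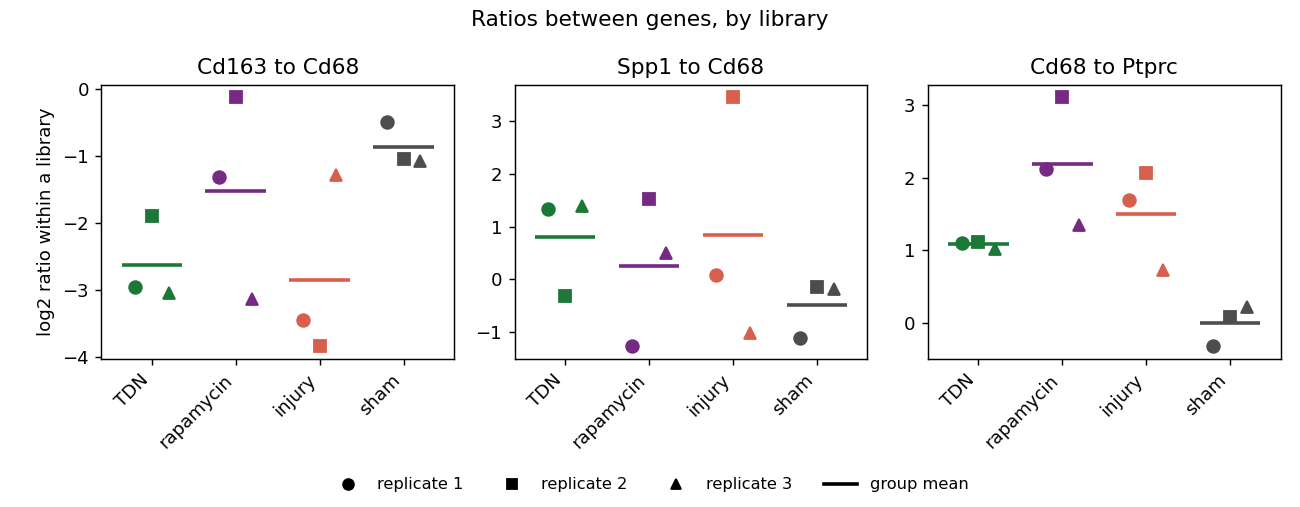
Log2 ratio of Cd163 to Cd68, of Spp1 to Cd68 and of Cd68 to Ptprc in each library of TDN, rapamycin, injury and sham; symbols are replicates and lines are group means. Cd68 to Ptprc lies above sham in all injured libraries, and Cd163 to Cd68 lies below sham in TDN and injury, with rapamycin spread from -3.14 to -0.12.

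Likeness to other genes was measured as the root mean square difference between log2 CPM profiles over the 12 libraries, each centred on its own mean. Within 0.5 of Ptprc lay 229 of the other 17520 tested genes and within 0.5 of Cd68 lay 30, while Cd163, Spp1 and Arg1 had none, their nearest genes being at 0.558, 0.926 and 0.605. The nearest to Ptprc was ENSRNOG00000036728, at 0.264, and the nearest to Cd68 was ENSRNOG00000005900, at 0.309. The measure depends on how much a gene varies: the root mean square of a member's own profile was 0.719 for Ptprc, 1.27 for Cd68, 1.25 for Cd163, 2.02 for Arg1 and 2.13 for Spp1. Among the members the closest pair was Ptprc and Cd68, at 0.927, followed by Cd68 and Arg1, at 1.12, and the farthest was Cd163 and Spp1, at 2.23. The distance of even this closest pair, 0.927, exceeds the 0.719 of Ptprc's own profile. A distance also grows when one gene varies more than the other, as Cd68 did. It therefore does not show whether the genes rose and fell together, and the ranks below share this limit. Cd68 was 7945th in distance from Ptprc among the 17520 genes, and Ptprc was 930th from Cd68. Cd68 was 34th in distance from Spp1 among the 17520 genes, and Cd163 was 8800th.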

How the data were processed

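RNA sequencing of poly(A)-enriched libraries, per the labels' protocols, gave counts of reads per gene, which the authors deposited as whole numbers for 32623 Ensembl IDs without normalization. Per the submitters' processing notes the genome build was Rnor 6.0. Not given in the sources used here are the aligner, the counter, the annotation and any use of strand, so reads of overlapping or near-identical genes may be misassigned. Of the table's columns, 12 matched labelled samples by title and 3 were not used. Groups came from the treatment labels.

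Genes were tested with edgeR 4.0.16 in R 4.3.3 (quasi-likelihood, TMM, default filter by group, 1 coefficient per group over 12 libraries, no covariate, 8 residual degrees of freedom). The filter kept 17521 genes; each of the 5 members had at least 96 counts in every library, so none passed only through 1 group. SE is the absolute log2 fold change over the square root of F. CPM was TMM-scaled, and log2 CPM used a prior count of 2. Ratios were compared by exact permutation (scipy 1.17.1). Alternatives were DESeq2 1.42.0, limma 3.58.1 voom, other scaling, filter and samples, a replicate block and leaving out libraries. The fits were tested on simulated data built from sham means with the same spread per gene in every group, unlike the real groups. Titles number the libraries 1 to 3, and the labels state no pairing. Deviations of same-numbered sham and injury libraries correlated at 0.107, 0.138 and 0.261, and in no other comparison did all 3 pass 0.1. The highest single value was 0.55, for replicate 3 of rapamycin and injury. Libraries with different numbers were not compared, so these values do not show a pairing.

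Members, lists and tests were chosen with earlier results of these data known. All members are named. Marker lists for leukocytes, urothelium, muscle, fibroblasts and endothelium had been set down by symbol, but the count table holds Ensembl IDs that the reference did not pair with symbols, so they were not evaluated and the tissue label was not checked against markers. For the same reason the nearest genes are given as 2 IDs. Nos2, and with it the ratio of Arg1 to Nos2, was not analysed here.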

Additional observations from a re-analysis of the deposited data

How the results depend on the processing

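The number of members called moved with the tool and the samples in the fit. For injury against sham it was 0 in edgeR, 3 in DESeq2, 4 in voom with sample quality weights and 3 without the rapamycin group, a fit that called 15.1% of tested genes. DESeq2 called 1 member in rapamycin against injury (0.171% of tested genes), 3 in TDN against rapamycin (9.92%) and 1 in TDN against sham (1.8%), where edgeR called 0 (0%). Voom with sample quality weights called 2 in TDN against injury (37.6% of tested genes) and 4 in TDN against rapamycin (34.2%). It called 1 in TDN against sham (11.2%) and 5 in rapamycin against sham (48.2%). A fit of only the groups compared called 2 in TDN against sham (5.88% of tested genes). In rapamycin against sham it called 1 in place of 3 (0.202% in place of 12.3%). The cause was not tested. With 1 library left out, the count was 0 to 2 for injury against sham (0 to 11.9% of tested genes called) and 0 to 1 for rapamycin against injury (0 to 0.0168%). It was 0 to 2 for TDN against rapamycin (0 to 26.8%) and 0 to 4 for rapamycin against sham (0.0056 to 40.6%). It stayed 0 for TDN against injury (0%) and for TDN against sham (0 to 0.0896%). With replicate numbers fitted as a block, no member's call changed, with 0 for injury against sham (0.434% of tested genes) and 3 for rapamycin against sham (14.8%).

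Outside leaving out libraries, 3 fold changes of single members turned: Spp1 in rapamycin against injury to 0.25 in limma voom, and Cd163 in TDN against sham to 0.0011 with sample quality weights and 0.0029 without the rapamycin group. With 1 library left out, Ptprc ranged from -0.32 to 0.14 and Spp1 from -2.73 to 0.98 in TDN against injury, Ptprc from -0.076 to 0.93 and Spp1 from -2.22 to 1.49 in rapamycin against injury, and Cd163 from -0.14 to 0.14 in TDN against sham. The log2 ratio of Cd163 to Cd68 ranged from -0.27 to 1.01 in TDN against injury and from -1.36 to 0.15 in rapamycin against sham. That of Spp1 to Cd68 ranged from -0.96 to 1.28 in TDN against injury, -1.51 to 0.72 in rapamycin against injury and -0.21 to 1.19 in TDN against rapamycin. Other prior counts (0.5 and 5) turned no ratio difference. The effect of depth was not tested.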
